A study of Mus musculus with 52 samples.

Results

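The genes described here are 10 transcripts that mark the epithelium of the choroid plexus (CP): Ttr, Kl, Folr1, Otx2, Clic6, Aqp1, Kcnj13, Cldn2, Enpp2 and Slc4a5. They were chosen by name from 49509 genes with a transcript in the deposited tables, as markers of epithelial cells by a rule that uses no measured value, and their estimated counts and TPM (a share of the library corrected for transcript length) were summed per gene. The question asked of them was how far epithelial RNA, as a share of the library, differed after a pull-down of endothelial ribosomes. A further question was how much of it was found in libraries that should hold none.

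The RiboTag mouse carries an allele of the ribosomal protein gene Rpl22 that gains an HA epitope tag after Cre recombination, so that antibodies to HA collect the ribosomes, with their mRNA, of the cells in which Cre was active. Here Cre came from Pdgfb-CreER, which is active in endothelial cells (ECs) after 4-hydroxytamoxifen (4HT). Immunoprecipitated RNA is called bound, and RNA of an aliquot of the tissue homogenate is called input. WT mice carried RiboTag and Pdgfb-CreER, and beta-catenin stabilized mice carried in addition Ctnnb1flex3 (named BcatEx3fl in the labels), from which Cre recombination gives a beta-catenin protein that escapes degradation. Both genotypes therefore carried the Cre transgene and received 4HT. The mice were males of 6 to 8 weeks, and the CP of 3 to 4 animals was pooled for each sample. CP and cerebral cortex of both genotypes gave 8 groups of bound or input RNA with 2 replicates each, 16 of the 52 libraries of the series. The other libraries, from ECs sorted by Tie2-GFP and from their GFP-negative neighbors, are used below for single values.

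In the CP, a single epithelial layer covers a stroma with leaky, fenestrated vessels. Tight junctions seal this layer, which secretes the cerebrospinal fluid (CSF). The epithelium moves sodium, chloride, bicarbonate and water from blood to ventricle, carries vitamins into the CSF, and releases proteins into it. Transthyretin, the product of Ttr, binds thyroid hormone and retinol-binding protein and is the best known of these secreted proteins. Cortex has no CP epithelium, and ECs are not epithelial, so that most of these genes serve as a measure of RNA from cells in which the ribosomes were not tagged. Several are limited in this respect, since they were also found in sorted ECs of other tissues. Aqp1 reached 282 TPM in posterior pituitary and Enpp2 stood at 26.9 to 61.6 TPM in cerebellum. Ttr reached 66.3 TPM in 1 cerebellum library, described below. At lower levels, Folr1 reached 17.5 TPM in posterior and stood at 0.540 to 7.23 TPM in anterior pituitary, and Clic6 stood at 0.862 to 6.61 TPM in posterior pituitary.

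RefSeq promoter windows on GRCm38.p6 (250 bases before to 50 after the annotated start) matched 6 of the 10 genes (Kcnj13, Kl, Aqp1, Slc4a5, Otx2 and Cldn2). Kcnj13 and Cldn2 are shown because they hold a TATA box close to the start, and the window of Otx2 because it is the one window of these genes with the core site of OTX homeodomain factors, the family to which Otx2 itself belongs. Aqp1 is shown because open chromatin was called there in ECs. Motif letters are in capitals. The windows are chr1:87394680-87394979 (minus strand) for Kcnj13, chrX:139800558-139800857 (plus strand) for Cldn2, chr14:48665060-48665359 (minus strand) for Otx2 and chr6:55336049-55336348 (plus strand) for Aqp1.
Kcnj13: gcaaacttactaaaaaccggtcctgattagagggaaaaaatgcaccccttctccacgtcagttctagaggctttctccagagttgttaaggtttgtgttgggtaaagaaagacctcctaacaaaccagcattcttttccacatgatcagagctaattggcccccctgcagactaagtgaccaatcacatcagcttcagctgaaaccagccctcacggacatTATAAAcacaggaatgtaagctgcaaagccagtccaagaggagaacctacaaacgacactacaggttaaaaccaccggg
Cldn2: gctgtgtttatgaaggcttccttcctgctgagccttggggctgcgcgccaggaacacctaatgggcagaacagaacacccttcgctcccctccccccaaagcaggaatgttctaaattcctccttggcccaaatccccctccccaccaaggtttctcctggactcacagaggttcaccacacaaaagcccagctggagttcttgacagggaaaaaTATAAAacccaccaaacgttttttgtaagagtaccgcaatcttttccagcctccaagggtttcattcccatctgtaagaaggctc
Otx2: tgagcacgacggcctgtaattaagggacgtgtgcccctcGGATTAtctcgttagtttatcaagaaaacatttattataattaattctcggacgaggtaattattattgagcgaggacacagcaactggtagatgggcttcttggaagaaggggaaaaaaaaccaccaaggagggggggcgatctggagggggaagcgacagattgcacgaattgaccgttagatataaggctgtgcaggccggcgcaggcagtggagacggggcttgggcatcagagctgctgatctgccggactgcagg
Aqp1: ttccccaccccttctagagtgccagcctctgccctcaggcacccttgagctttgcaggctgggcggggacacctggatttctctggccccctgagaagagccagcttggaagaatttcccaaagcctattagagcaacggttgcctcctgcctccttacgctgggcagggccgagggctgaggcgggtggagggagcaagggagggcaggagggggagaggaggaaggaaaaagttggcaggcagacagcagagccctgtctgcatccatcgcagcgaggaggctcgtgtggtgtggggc

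The TATA box was searched as TATAAA and TTTATA, the OTX site as TAATCC and GGATTA, and the core of the TCF/LEF site as CTTTGA and TCAAAG, each as the word and its reverse complement. A TATA box was present in 4 of the 9 windows of the 6 genes (Otx2 has several) and in 13.6% of all 32851 windows. It began 29 bases before the start of Kcnj13 and 35 bases before that of Cldn2, and lay farther upstream in Otx2 (192 bases) and, on the reverse strand, in Slc4a5 (127 bases). The OTX site was present in 1 of the 9 windows and in 7.06% of all windows. The TCF/LEF core was found in none of the 9 and in 16% of all windows. A match of letters is a description of the window and not evidence of binding.

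The 16 libraries held 6409013 to 21399125 estimated counts. Endothelial markers (10 genes, among them Pecam1, Cdh5 and Cldn5) were called higher in bound than in input RNA for 10 of 10 genes in CP of both genotypes, against 8.35% of all genes called higher in WT and 9.18% in stabilized CP. Axin2, a feedback target of beta-catenin signaling, stood at 45.8 and 63.1 CPM (counts scaled by library size and a normalization factor) in WT CP bound RNA and at 110 and 119 CPM in stabilized CP bound RNA. A very short annotated RNA, Gm23935, took 31.0% to 52.2% of the TPM in the CP and stabilized cortex libraries but 0.123% to 0.409% in the WT cortex libraries. TPM was therefore read within a library, except where stated. The RiboTag libraries were tested on estimated counts, with library sizes scaled by the trimmed mean of M values (TMM), in which this RNA has little weight. WT cortex libraries stand apart in this respect, so that genotype and library composition cannot be told apart in cortex.

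In the WT CP input the 10 genes spanned more than 3 orders of magnitude in level per length. Ttr led with 35766 ± 2229 TPM (mean ± SD, n = 2). Enpp2, which encodes autotaxin, a secreted enzyme that makes lysophosphatidic acid, followed with 2285 ± 242 TPM. The folate receptor gene Folr1 (284 ± 50.7 TPM) and the potassium channel gene Kcnj13 (232 ± 45.4 TPM) came next, and their replicate values overlapped. Kl, which encodes the FGF23 co-receptor Klotho (88.4 ± 0.574 TPM), lay above Slc4a5, a sodium bicarbonate cotransporter of the epithelium (77.1 ± 13.8 TPM), and Clic6, of the chloride intracellular channel family (76.3 ± 12.0 TPM). The last pair overlapped. The transcription factor gene Otx2 (38.1 ± 12.6 TPM), the paracellular cation pore gene Cldn2 (21.2 ± 2.34 TPM) and the water channel gene Aqp1 (17.4 ± 1.70 TPM) were lowest. Ttr alone took 10.5% to 12.2% of all counts in the 4 CP input libraries and 2.36% to 3.91% in the 4 CP bound libraries.

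**Figure D1:**
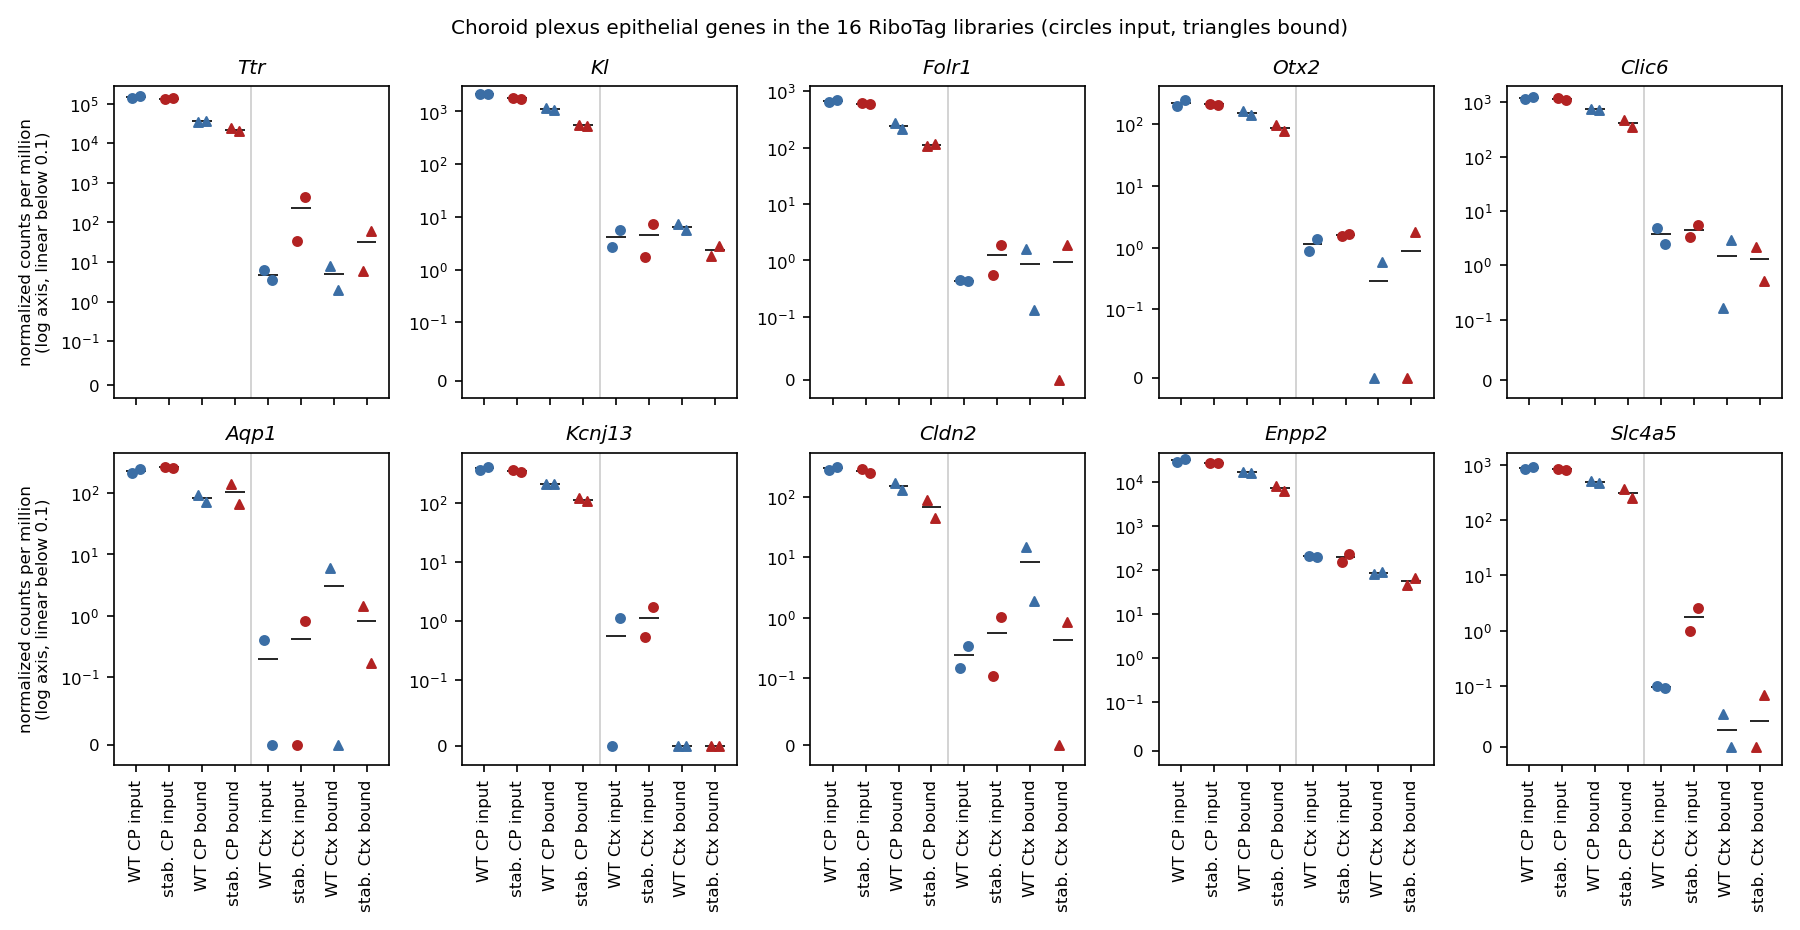
Normalized CPM (log axis, linear below 0.1) of the 10 epithelial genes, with 2 points for each of the 8 groups, a line at the group mean, circles for input, triangles for bound, blue for WT and red for stabilized. In choroid plexus (CP) the triangles lie below the circles for all 10 genes in both genotypes, and the cortex (Ctx) libraries lie below every CP library.

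On normalized CPM, bound RNA of WT CP held less of all 10 epithelial transcripts than input RNA, whereas on TPM 3 of the 10 were lower. The bound level was between 23.6% (Ttr) and 68.8% (Otx2) of the input level. These are shares of a library, and the amount of RNA removed was not measured. The 2 bound libraries lay below the 2 input libraries for 10 of 10 genes, as they did for 27.1% of the 24109 genes with counts.

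Among the secreted and surface proteins, Ttr stood at 142668 and 158909 CPM in the WT input libraries and at 35319 and 35968 CPM in the bound ones. Enpp2 stood at 28971 and 33850 CPM in input and at 17623 and 16414 CPM in bound RNA. Kl stood at 2101 and 2134 CPM in input and at 1178 and 1076 CPM in bound RNA. In each the replicates lay closer to one another than bound lay to input, and Ttr had the largest relative difference. For Folr1, which brings folate to the CSF, the input values were 637 and 697 CPM and the bound values 272 and 215 CPM. Among the ion and water transport genes, Slc4a5 went from 847 and 936 CPM to 523 and 479 CPM, and Kcnj13 went from 366 and 410 CPM to 210 and 212 CPM.

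Clic6 had 1138 and 1266 CPM in the WT input and 735 and 733 CPM in the bound libraries. Aqp1 had 213 and 251 CPM in input and 93.7 and 71.7 CPM in bound RNA. The pore protein gene Cldn2 had 280 and 314 CPM against 166 and 130 CPM. Otx2, which specifies the CP epithelium in development, was the gene with the smallest difference, at 194 and 247 CPM in input and 165 and 139 CPM in bound RNA.

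edgeR's quasi-likelihood test across 18226 genes in all 16 libraries called 0 of the 10 genes lower in WT CP bound RNA at a Benjamini-Hochberg adjusted p under 0.05 and a fold of at least 2, against 7.23% of all genes tested. Of the 10, 4 had an unadjusted p under 0.05, and DESeq2 also called 0. The share of all genes under this unadjusted p is not given, so that count is no result about these genes. The log2 fold changes ran from -2.08 (Ttr, SE 1.0, adjusted p = 0.172) to -0.54 (Otx2, SE 0.52, adjusted p = 0.513), with a median of -0.90 beside 0.00 for all genes tested. Enpp2 passed the p threshold but not the fold (log2 fold change -0.88, SE 0.25, adjusted p = 0.0249). This fit takes one spread per gene from all libraries, cortex included, where most of these transcripts have few counts. In a fit of the 4 WT CP libraries alone, 3 genes were called (Ttr, Folr1 and Aqp1), against 8.95% of all genes called. Without the fold, 9 had an adjusted p under 0.05 in edgeR there, and the share of all genes for this is not given. With bound and input of the same replicate paired as a block, 3 genes (again Ttr, Folr1 and Aqp1) were called against 7.53% of all genes. Over 11 alternatives the adjusted p of Ttr ran from 2.65e-27 to 0.359 and that of Enpp2 from 1.58e-05 to 0.184.

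In stabilized CP the bound RNA held between 16.8% (Ttr) and 42.0% (Otx2) of the input level, and again the bound libraries lay below the input libraries for 10 of 10 genes (29.4% of the 23424 genes with counts). Ttr stood at 128964 and 136060 CPM in input and at 23823 and 20617 CPM in bound RNA. Enpp2 stood at 27545 and 26953 CPM in input and at 8050 and 6482 CPM in bound RNA. Kl had 1825 and 1744 CPM against 551 and 541 CPM. These 3 secreted or shed proteins showed no overlap between bound and input. For folate uptake, Folr1 had 607 and 583 CPM in input and 109 and 114 CPM in bound RNA. Slc4a5 had 869 and 803 CPM in input and 363 and 252 CPM in bound RNA, and Kcnj13 had 354 and 336 CPM against 122 and 106 CPM.

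The remaining 4 genes include those whose bound replicates differed most in stabilized CP. Clic6 had 1168 and 1098 CPM in input against 472 and 349 CPM in bound RNA, and Otx2 had 215 and 205 CPM against 98.4 and 77.9 CPM. Cldn2 had 287 and 249 CPM in input but 89.2 and 45.1 CPM in the 2 bound libraries. Aqp1 differed most between the replicates, at 144 and 68.0 CPM in bound RNA beside 272 and 264 CPM in input.

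Of the 10 genes, 4 were called lower in stabilized CP bound RNA against 8.83% of all genes tested: Enpp2 (log2 fold change -1.91, SE 0.26, edgeR adjusted p = 0.000210), Slc4a5 (-1.44, SE 0.29, adjusted p = 0.00310), Kl (-1.71, SE 0.42, adjusted p = 0.0103) and Folr1 (-2.42, SE 0.61, adjusted p = 0.0117). The median over the 10 genes was -1.65 on the log2 scale. Ttr had the largest log2 fold change (-2.58) and an adjusted p of 0.0882, with an SE of 1.02. In the fit of the 4 stabilized CP libraries alone, 10 of 10 genes were called against 9.17% of all genes. Paired by replicate, 9 were called against 9.55% of all genes, Clic6 being the exception. With a gene length offset 2 were called (Kl and Enpp2), against 9.01% of all genes. The call of Folr1 was lost in 3 alternatives (adjusted p = 0.0846 with DESeq2, 0.0626 with the length offset and 0.0505 without stabilized CP bound replicate 1), and that of Slc4a5 in 1 (0.125 with the length offset).

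**Figure D2:**
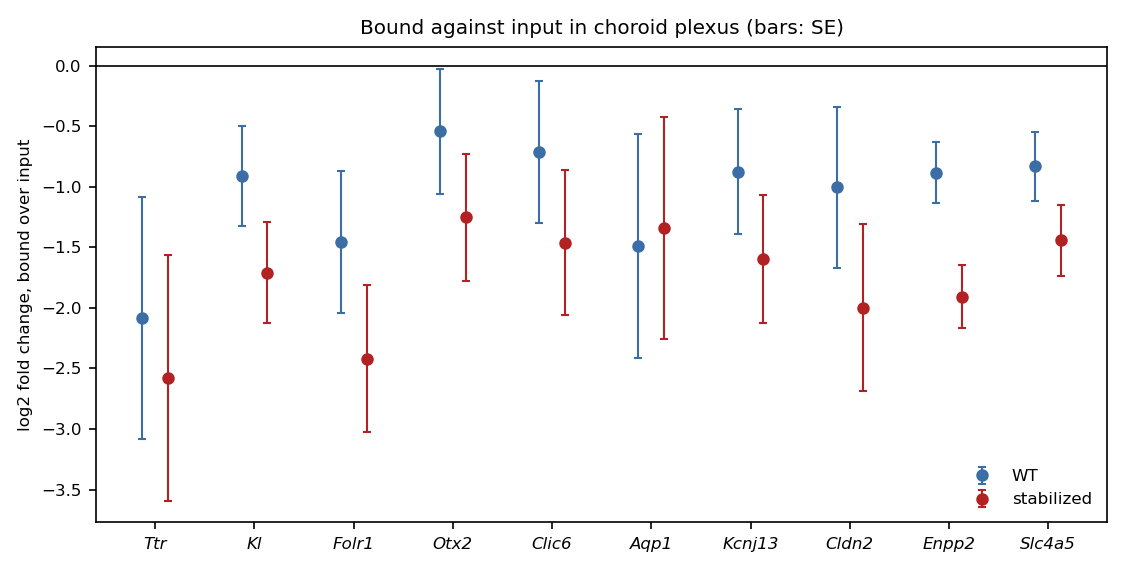
Log2 fold change of bound over input RNA in choroid plexus for the 10 epithelial genes, blue for WT and red for stabilized, as points with standard errors from the fit of 16 libraries. All points lie below 0, from -0.54 (Otx2, WT) to -2.58 (Ttr, stabilized).

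Other genes of the CP epithelium were read from lists chosen by function. Beside the counts that follow stand 7.23% of all genes called lower in WT and 8.83% in stabilized CP. Of 15 further transport genes, 1 was called lower in WT CP bound RNA, a share near that of all genes, and 14 had a negative log2 fold change (median -0.65). In stabilized CP 10 were called lower (median -1.43). The 2 with the highest level were the anion exchanger gene Slc4a2, at a log2 fold change of -0.65 in WT and -1.20 in stabilized CP, and Atp1b1, a subunit of the sodium pump, at -0.92 and -1.78. Atp1b1 is not particular to this epithelium. In WT input it was lower in CP than in cortex (log2 fold change -0.61, edgeR adjusted p = 0.00162). It was also lower in bound than in input RNA of cortex (-1.22 in WT and -2.36 in stabilized mice). The list's least depleted gene, Lrp2, was near 0 in level (mean of 0.0157 TPM in WT CP input) and was not called. Of 19 further genes for secreted and surface proteins, 4 were called lower in WT and 12 in stabilized CP (medians -0.87 and -1.59). Igfbp2, which encodes an insulin-like growth factor binding protein, fell by 1.71 on the log2 scale in WT (edgeR adjusted p = 0.00187) and by 2.20 in stabilized CP. 1500015O10Rik was also called in both, at -1.99 in WT and -2.51 in stabilized CP. Col9a3, a collagen chain gene, was the exception, at 0.50 in WT and 0.52 in stabilized CP, and was not called. Of 7 tested lineage and cilium genes, 2 were called lower in WT and 3 in stabilized CP (medians -1.12 and -1.33). Dynlrb2, a dynein light chain gene with the highest level of those named from this list, stood at -1.73 in WT (adjusted p = 0.0749) and -1.40 in stabilized CP and was not called. Lmx1a, the least depleted, stood at -0.57 (adjusted p = 0.522) and -0.90 and was not called. Msx1, a homeobox gene of the CP lineage, fell by 1.12 in WT and by 1.33 in stabilized CP. In stabilized cortex, however, Msx1 was higher in bound than in input RNA (3.02, edgeR adjusted p = 1.57e-06). In WT cortex it stood at -0.53 (adjusted p = 0.218). Between genotypes, Msx1 was higher in stabilized than in WT cortex bound RNA (3.60, edgeR adjusted p = 0.000719).

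Lists of other cell types moved with the pull-down. The endothelial markers summed to 261 to 266 CPM in WT CP input and to 2333 to 3119 CPM in WT CP bound RNA, 10.3-fold higher. In stabilized CP they went from 303 to 343 CPM up to 4023 to 4606 CPM, 13.4-fold higher. The 9 epithelial genes without Ttr, divided by the endothelial sum, gave 133 and 151 in WT CP input and 8.99 and 6.24 in bound RNA. The same quotient was 96.8 and 106 in stabilized CP input and 2.17 and 2.0 in bound RNA. Most of the 9-gene sum is Enpp2, with 17623 and 16414 CPM of the 20965 and 19470 CPM in WT CP bound RNA and 8050 and 6482 CPM of the 9999 and 8036 CPM in stabilized CP bound RNA, so that these quotients follow this gene. Macrophage and microglia markers, of which 6 of 6 were called higher in bound RNA of both genotypes (8.35% and 9.18% of all genes), rose in sum 6.66-fold in WT and 3.91-fold in stabilized CP. Fibroblast markers in bound RNA stood at 0.447 and erythrocyte markers at 0.315 of the WT input sum. The part of these cell types in the epithelial values was not tested.

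**Figure D3:**
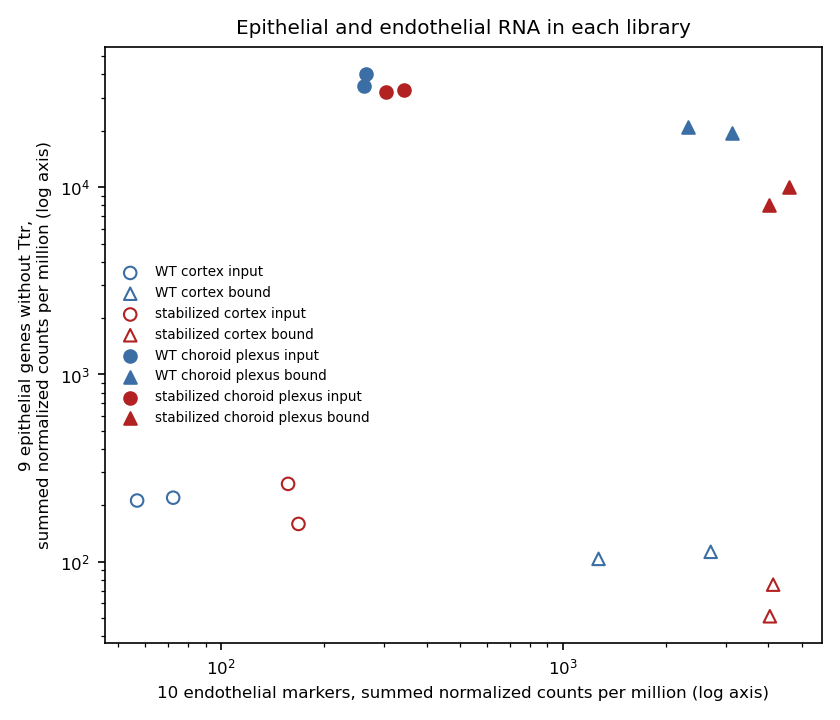
Summed normalized CPM of the 9 epithelial genes without Ttr (vertical, log axis) against those of 10 endothelial markers (horizontal, log axis), 1 point per RiboTag library, filled for choroid plexus and open for cortex, circles for input and triangles for bound. The choroid plexus bound libraries lie to the right of and below their inputs, at 8036 to 20965 for the epithelial sum against 32236 to 40105 in input.

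The scale of the values bears on the direction in WT CP. On TPM, the difference of mean log2 values between WT CP bound and input RNA had a median of 0.11 over the 10 genes, beside 0.63 over all genes tested, and was below 0 for 3 of the 10. When TPM was rescaled to nuclear protein-coding genes, the median was -0.43 beside 0.44 for all genes, and 8 of 10 genes were below 0, Otx2 (0.05) and Slc4a5 (0.32) being the exceptions. In stabilized CP the medians were -1.03 on TPM and -1.42 on rescaled TPM, with 10 of 10 genes below 0 on both. The direction in WT CP thus turns with the scale for single genes, and 9 of 10 genes lay below the median of all genes on TPM and 10 of 10 on rescaled TPM.

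The effective length, which Salmon estimates per transcript, follows the transcripts used. In WT CP it was shorter in both bound than in both input libraries for several genes. That of Slc4a5 was 2076 and 1852 bases in WT CP input and 1216 and 1187 bases in bound RNA, so that its level per length and its counts changed unequally. Smaller differences without overlap were seen in WT CP for Folr1 (424 and 375 against 314 and 309 bases), Ttr (688 and 732 against 633 and 612), Enpp2 (2260 and 2369 against 2079 and 2079) and Cldn2. In stabilized CP, Slc4a5, Ttr, Enpp2 and Kl were shorter in bound RNA without overlap, whereas Folr1 and Cldn2 overlapped. Clic6 was longer there in both bound libraries (2683 and 2597 bases in input against 2959 and 2854). The share of all genes with such a difference was not computed. Other genes share sequence with a neighbor on GENCODE M21, and reads of the unstranded kit cannot be assigned to a strand. Kcnj13 (chr1:87386363-87394729, minus strand) lies within Gigyf2, and Folr1 (chr7:101858331-101870788, minus strand) overlaps Anapc15, both partners being on the other strand. Otx2 overlaps Otx2os1, Enpp2 overlaps Gm26684 and Clic6 overlaps 2410124H12Rik. Values of these 5 genes are uncertain to that extent. In every CP library each neighbor had fewer counts than the gene it overlaps. Over the CP libraries, Anapc15 had 21 to 99 counts, Otx2os1 30 to 98, Gigyf2 446 to 865, Gm26684 294 to 622 and 2410124H12Rik 0 to 2. In every cortex library Anapc15 (66 to 340 counts) and Gigyf2 (578 to 3179) had more counts than Folr1 and Kcnj13.

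The genotypes were compared within each fraction. In bulk samples of this kind, fewer cells of a type and less RNA per cell cannot be told apart. Whole CP (input) showed small differences in the epithelial genes between genotypes: the log2 fold changes of stabilized over WT ran from -0.26 to 0.19 (Aqp1), with a median of -0.17 beside -0.03 for all 16072 genes tested. edgeR called 0 of 10 genes, 0 had an unadjusted p under 0.05 and DESeq2 called 0, against 0.106% of all genes called. A p that misses the threshold does not show that the levels are equal. The 2 stabilized libraries lay below the 2 WT libraries for 5 genes, above them for Aqp1, and overlapped with them for Otx2, Clic6, Cldn2 and Slc4a5. Of the 23350 genes with counts, 16.9% lay below and 17.1% above in this way.

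In CP bound RNA, 9 of the 10 genes were lower in both stabilized libraries than in both WT libraries, a pattern found in 19.1% of 23356 genes with counts, and Aqp1 overlapped. Enpp2 had 17623 and 16414 CPM in WT and 8050 and 6482 CPM in stabilized bound RNA, a log2 fold change of -1.33 (edgeR adjusted p = 0.0985). Kl had 1178 and 1076 CPM against 551 and 541 CPM, at -1.14 (adjusted p = 0.101). Kcnj13 stood at -0.99 (adjusted p = 0.133), Slc4a5 at -0.81 (adjusted p = 0.283), and Ttr at -0.78. None of the 10 passed in edgeR (0 called against 0.853% of 16764 genes). An unadjusted p under 0.05 was reached by 4 of them (Kl, Kcnj13, Enpp2 and Slc4a5), for which the share of all genes is not given. DESeq2 called 2, against 4.42% of all genes called. In a fit of the 4 CP bound libraries alone, 3 were called (Kl, Folr1 and Enpp2), against 1.76% of all genes. Aqp1, at 0.25, turned to -0.29 when stabilized CP bound replicate 1 was left out.

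A direct test of whether bound and input differed by a different amount in the 2 genotypes called 0 of the 10 genes in CP, against 0.318% of all genes. The interaction terms ran from -1.02 (Enpp2, unadjusted p = 0.0129, edgeR adjusted p = 0.327) to 0.15 (Aqp1), with 9 of 10 below 0 and a median of -0.74 beside -0.05 for all genes. DESeq2 called 1 gene (1.74% of all genes), Enpp2, with an adjusted p of 0.0390 (0.0174 to 0.792 over 15 alternatives). In the same libraries the endothelial sum was higher in stabilized bound RNA (4023 to 4606 CPM) than in WT bound RNA (2333 to 3119 CPM). Macrophage and microglia markers were higher in stabilized mice in bound RNA (679 to 814 against 367 to 514 CPM in WT) and in input (166 to 216 against 65.9 to 66.6 CPM). Mural markers were higher in input (329 to 464 against 178 to 199 CPM). Stromal fibroblast markers were higher in input (504 to 590 against 377 to 406 CPM) and in bound RNA (201 to 283 against 172 to 178 CPM). Erythrocyte markers were lower in input (208 to 252 against 265 to 370 CPM) and in bound RNA (44.4 to 58.4 against 93.1 to 107 CPM). The part of these cell types in the epithelial difference was not tested.

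**Figure D4:**
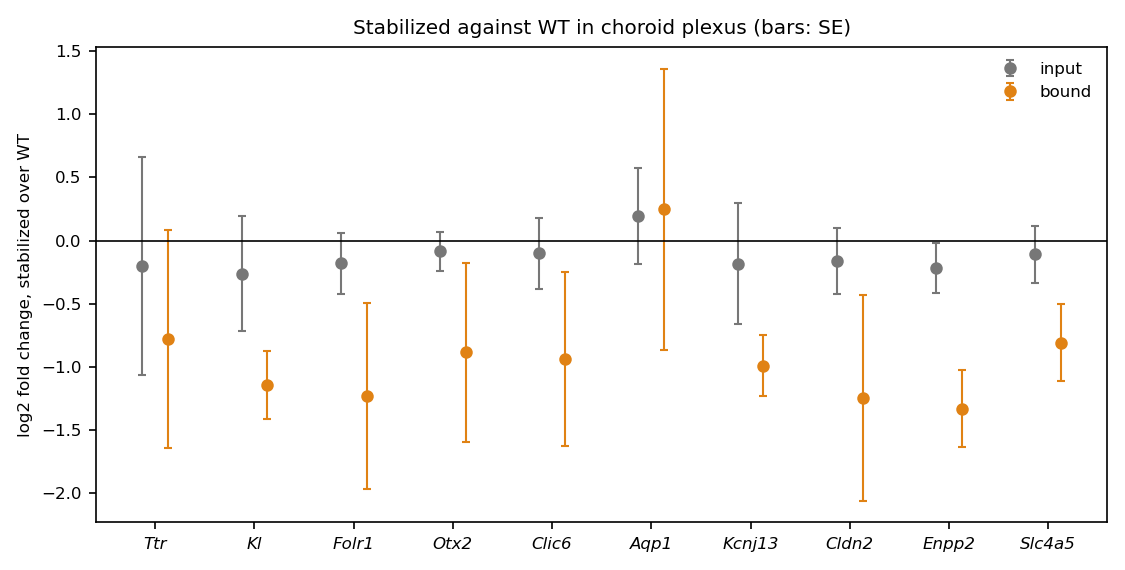
Log2 fold change of stabilized over WT choroid plexus for the 10 epithelial genes, gray for input and orange for bound RNA, as points with standard errors. Input points lie between -0.26 and 0.19, and bound points lie between -1.33 (Enpp2) and 0.25 (Aqp1).

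All 10 genes were called higher in CP than in cortex in each of 4 comparisons: WT input (26.5% of all genes called), stabilized input (20.3%), WT bound (13.9%) and stabilized bound RNA (5.62%). The count was 9 in WT bound RNA with DESeq2 (18% of all genes called) and in a fit of the compared groups alone (15.2%), and 9 in stabilized bound RNA without stabilized cortex bound replicate 2 (3.42%). In WT input the ratio of Ttr was 31762 (95% interval 27614 to 36724, for counting error only). In stabilized input it was 521 (507 to 536), and without 1 cortex library it was 3785 (replicate 2 left out) or 303 (replicate 1 left out), a leave-out chosen after seeing the data. Enpp2, which oligodendrocytes of the cortex also express, had the lowest ratio of the 10 in WT input (154, 151 to 157). In WT bound RNA Cldn2 (19.2, 17.1 to 21.7) and Aqp1 (30.1, 24.8 to 36.8) had low ratios that rest on cortex bound replicate 1. Without it the ratio of Cldn2 was 78.5 and Aqp1 was at least 614-fold higher in CP, from a floor of 3 counts in the library left, and without replicate 2 the ratios were 10.1 and 13.6. Kcnj13 had 0 counts in the cortex bound libraries, and its CP bound level was at least 2867-fold higher in WT and at least 763-fold higher in stabilized mice, from a floor of 3 counts over the group (lower limits of the 95% counting interval, 2331 and 620). Slc4a5 had 1 count in WT cortex bound RNA, a ratio of 20417 with a counting interval of 3663 to 806511.

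In cortex most of the epithelial genes had few counts. Over the 8 cortex libraries, Folr1 and Otx2 had 0 to 29 counts, Kcnj13 0 to 23 and Slc4a5 0 to 28. Kl (15 to 138 counts) and Clic6 (3 to 100) were detected in every cortex library, as were Enpp2 and Ttr, and Aqp1 and Cldn2 reached over 100 counts in 1 library each. Enpp2 had 210 and 201 CPM in WT cortex input and 83.0 and 92.6 CPM in bound RNA. In stabilized cortex it had 150 and 238 CPM in input and 45.8 and 67.4 CPM in bound RNA. The 2 fractions did not overlap in either genotype. The log2 fold change was -1.23 in WT (SE 0.25, edgeR adjusted p = 0.00545) and -1.78 in stabilized cortex (SE 0.26, adjusted p = 0.000218). Oligodendrocyte markers moved in the same direction. Of these, 2 of 5 were called lower in WT (4.25% of all genes) and 5 of 5 in stabilized cortex (12.1% of all genes). Their medians were -1.24 and -2.63, beside -0.33 and -0.30 for all genes tested. Sums of neuron and astrocyte markers were lower too, at 0.449 and 0.585 of input in WT and 0.268 and 0.295 in stabilized cortex. The part of these cell types in the Enpp2 values was not tested. The WT call of Enpp2 was lost without either input library (adjusted p = 0.101 without replicate 1 and 0.0608 without replicate 2) and without bound replicate 1 (0.0680), and ran from 1.20e-05 to 0.101 over 11 alternatives. It was also lost, because the fold fell under 2, with library size without Ttr (log2 fold change -0.99), with a length offset (-0.95) and in a fit of the WT cortex libraries alone (-0.89).

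Of the 10 genes, 1 (Enpp2) was called lower in bound RNA of WT cortex, against 4.25% of all genes, and 3 (Kcnj13, Enpp2 and Slc4a5) in stabilized cortex, against 12.1%. Kcnj13 had 5 and 19 counts in stabilized cortex input and 0 and 0 in bound RNA. Slc4a5 had 9 and 28 counts in stabilized cortex input and 0 and 1 in bound RNA. Paired by replicate, the counts of genes called lower were 2 in WT, against 6.03% of all genes, and 4 in stabilized cortex, against 13.1%. With a length offset, 1 gene was called in stabilized cortex, against 6.02% of all genes. A fit of the stabilized cortex libraries alone also called 1, against 12.6%. It was Enpp2 in both, and the calls of Kcnj13 and Slc4a5 were lost there. The interaction with genotype in cortex called 0 genes in edgeR (0.604% of all genes), DESeq2 called 1 (3.25% of all genes), and the paired fit called 1 (0.752%). In edgeR 2 had an unadjusted p under 0.05, for which the share of all genes is not given.

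In WT cortex 2 genes, Cldn2 and Kl, were higher in both bound than in both input libraries, as were 14.7% of 22810 genes with counts. In sum, endothelial markers were 30.9-fold and macrophage and microglia markers 20.1-fold higher in bound RNA of WT cortex. The part of these cell types in the 2 genes was not tested. Cldn2 had 3 and 7 counts (0.15 and 0.34 CPM) in input and 272 and 42 counts (14.7 and 1.89 CPM) in bound RNA, and was called higher, against 7.45% of all genes (log2 fold change 5.02, SE 1.01, edgeR adjusted p = 0.00448). Without WT cortex bound replicate 1 the log2 fold change was 3.12 (adjusted p = 0.0330), and in a fit of the 4 WT cortex libraries alone the adjusted p was 0.0595, the highest of 11 alternatives, of which the lowest was 4.24e-43. In stabilized cortex bound RNA Cldn2 had 0 and 10 counts. Kl had 2.67 and 5.56 CPM in WT cortex input and 7.48 and 5.66 CPM in bound RNA, and was not called. Aqp1 had 112 counts in WT cortex bound replicate 1 and 0 in replicate 2, so that its value there rests on 1 library. Folr1 had 9 and 9 counts in input and 29 and 3 in bound RNA (log2 fold change 0.88, edgeR adjusted p = 0.572), and the fractions overlapped.

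Ttr in cortex differed between genotypes and between replicates. WT cortex input held 124 and 72 counts (6.14 and 3.45 CPM), and stabilized cortex input held 320 and 4782 counts (34.9 and 436 CPM). WT cortex bound RNA held 144 and 44 counts (7.80 and 1.98 CPM), and stabilized cortex bound RNA held 49 and 702 counts (5.88 and 59.9 CPM). Replicate 2 of stabilized cortex was the highest library in both fractions, and in the bound fraction the genotypes overlapped. At its highest, in stabilized input replicate 2, Ttr was 0.0410% of all counts (95% Wilson interval 0.0398 to 0.0421), beside 10.5% or more in CP input.

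In cortex input, 3 of the 10 genes were called higher in stabilized mice, against 8.44% of all genes called higher and 11.8% called in either direction: Ttr (log2 fold change 5.70, SE 1.07, edgeR adjusted p = 0.00835), Slc4a5 (adjusted p = 0.00184, from 2 and 2 counts in WT and 9 and 28 in stabilized mice) and Folr1 (1.60, adjusted p = 0.0473). Without stabilized cortex input replicate 2, the value of Ttr was 2.94 (adjusted p = 0.00172) and that of Folr1 was 0.38 (adjusted p = 0.747). Without WT cortex input replicate 2, the adjusted p of Ttr was 0.0601, the highest of 11 alternatives, and that of Folr1 ran from 0.00195 to 0.747 over 10. The call of Folr1 was lost in 6 of these 10: with library size without Ttr (0.0630), the replicate block (0.0708), a length offset (0.312), and without WT cortex input replicate 1 (0.122), WT replicate 2 (0.141) or stabilized replicate 2. The number of genes called was 2 in 7 of 11 alternatives, against 10.1% to 17.8% of all genes called in either direction. In cortex bound RNA, 1 gene was called, against 6.31% of all genes (2.67% called lower): Kl, lower in stabilized mice (log2 fold change -1.48, SE 0.31, adjusted p = 0.0256). This call was lost in 3 of 11 alternatives. These were a length offset, a fit of the cortex bound libraries alone, and leaving out stabilized cortex bound replicate 1. Over the 11 the adjusted p ran from 0.000160 to 0.254. Marker sums of other cell types also differed between the genotypes in cortex. In input, endothelial markers stood at 157 to 168 CPM in stabilized mice against 56.7 to 72.3 CPM in WT, neuron markers at 2892 to 3948 against 4653 to 4912 CPM, and astrocyte markers at 2849 to 3788 against 4718 to 5096 CPM. Mural markers were also lower in stabilized input (58.1 to 64.7 against 78.0 to 92.9 CPM). In bound RNA, endothelial markers stood at 4038 to 4129 against 1272 to 2710 CPM. Neuron markers (913 to 918 against 1810 to 2481 CPM), astrocyte markers (727 to 1229 against 2058 to 3683 CPM) and oligodendrocyte markers (862 to 1003 against 1908 to 2071 CPM) were lower there in both stabilized libraries. Erythrocyte markers were also lower there (41.7 to 46.3 against 167 to 268 CPM). The part of these cell types in the values of Ttr, Slc4a5, Folr1 and Kl was not tested.

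The counts of the other 9 genes in stabilized cortex input replicate 2 were set beside those that its 4782 Ttr counts would carry along at the ratios seen in CP input. The 95% counting interval of the count reached that range for 6 of 9 genes. Kl had 80 counts (61.3 to 70.4 at the CP ratio), Folr1 21 (20.5 to 22.5), and Slc4a5 28 (28.2 to 32.2). Kcnj13 had 19 (11.8 to 13.1), Cldn2 11 (8.75 to 10.7), and Aqp1 9 (7.15 to 10.1). Otx2 (18 counts, 6.51 to 7.95), Clic6 (61, 38.1 to 43.3) and Enpp2 (2614, 947 to 1021) lay above their ranges. In the bound library of the same replicate the interval reached the range for 4 of 9 genes, which had 0 to 6 counts. In the other cortex libraries it did so for 2 to 5 of 9 genes, which had 0 to 3 counts, and the 5 of stabilized bound replicate 1 had 0 counts each. Counts this low say little about the ratio. WT cortex input held 54 and 116 counts of Kl beside 124 and 72 of Ttr, more than the CP input ratio gives there. With few counts the intervals are wide, and a count within its interval does not show where the RNA came from.

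The ratios to Ttr also differed between fractions of CP. Per 1000 units of TPM of Ttr, Enpp2 had a median of 62.7 in the 4 CP input libraries (54.8 to 65.8) and 110 in the 4 bound libraries (76.0 to 152). Slc4a5 went from 2.15 (1.91 to 2.47) to 6.38 (4.50 to 7.71), and Otx2 from 1.10 (0.853 to 1.35) to 2.68 (1.73 to 3.35). Kl had 1.88 to 2.60 in input and 3.01 to 4.91 in bound RNA, and Clic6 had 1.94 to 2.31 and 2.85 to 5.17. For these 5 of the 9 genes the bound range lay above the input range, as it did for 39.8% of 26567 genes with counts in CP. A ratio to Ttr rises for any gene that lost a smaller share of its TPM than Ttr did. For the other 4, Folr1 (7.24 to 8.84 in input, 7.43 to 15.5 in bound RNA), Kcnj13, Cldn2 and Aqp1, the ranges overlapped.

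**Figure D5:**
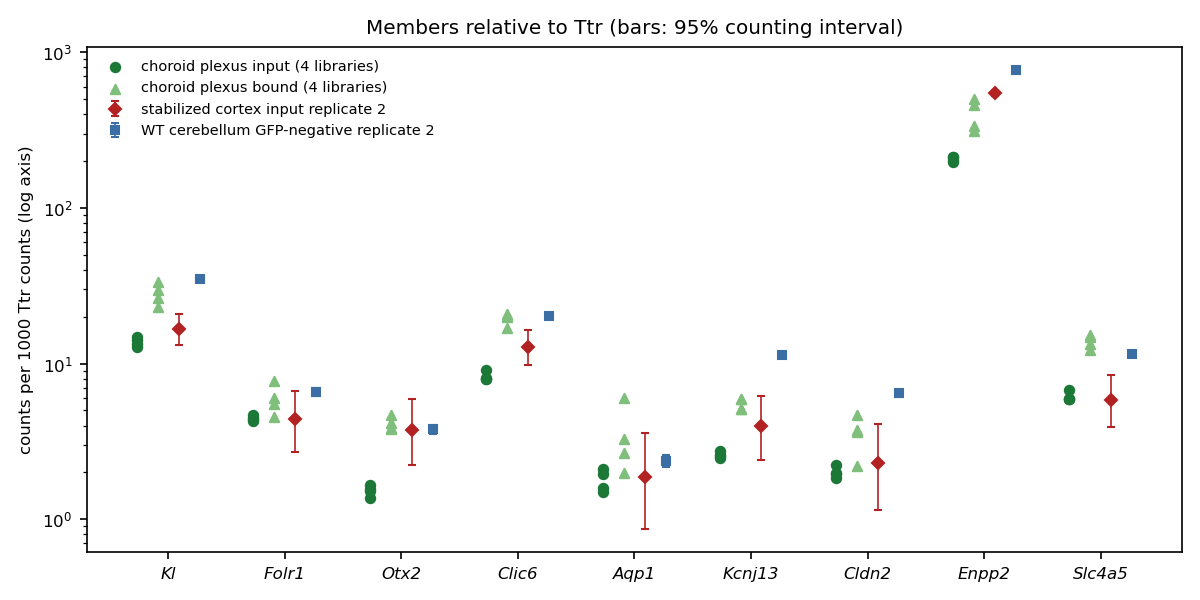
Counts of 9 epithelial genes per 1000 counts of Ttr (log axis) in choroid plexus input (dark green circles) and bound libraries (light green triangles), stabilized cortex input replicate 2 (red diamonds) and WT cerebellum GFP-negative replicate 2 (blue squares), the last 2 with 95% counting intervals. The red intervals reach the choroid plexus input points for 6 of 9 genes, and the blue squares lie above those points for all 9.

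Ttr was found in single sorted libraries of cerebellum. WT cerebellum GFP-negative replicate 2 had 3514 TPM of Ttr (211855 counts), whereas replicate 1 had 2 counts, and the GFP-negative libraries of stabilized cerebellum had 0 and 342 counts. All 9 other genes were above the range that the CP input ratio to Ttr gives, for example Kl (7415 counts) and Enpp2 (162292 counts). GFP-positive ECs of WT cerebellum had 0 and 2380 counts of Ttr, the latter again in replicate 2. Both replicate 2 libraries are of the same genotype and tissue, and each is 1 sample, so that no test was made.

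Aqp1, which ECs outside the brain also express, had a level in sorted pituitary ECs that separated the genotypes. In these mice WT animals carried Tie2-GFP without Cre or 4HT, and stabilized animals also had Pdgfb-CreER, Ctnnb1flex3 and 4HT. GFP-positive cells of WT anterior pituitary had 0.181 and 1.11 TPM and those of stabilized anterior pituitary 47.4 and 71.1 TPM. Posterior pituitary had 21.1 and 23.2 TPM in WT and 235 and 282 TPM in stabilized GFP-positive cells. The genotypes did not overlap in either lobe. Aqp1 was not alone in this. Clic6 had 0.332 and 0 TPM in WT and 1.46 and 1.69 TPM in stabilized anterior pituitary. In posterior pituitary Clic6 had 1.48 and 0.862 TPM in WT and 5.35 and 6.61 TPM in stabilized mice. Enpp2 was lower in stabilized posterior pituitary (12.4 and 8.49 TPM against 32.3 and 35.0 TPM). At low levels, Kl in both lobes and Ttr in the anterior lobe also separated. The share of all genes that separate was not computed. These are descriptions on TPM across libraries with no test.

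Peaks of open chromatin (ATAC-seq) in 12 libraries of sorted ECs were read at the promoters of the 10 genes. The window ran from 250 bases before to 50 after the start of the gene in GENCODE M21. The RefSeq start of the printed Otx2 window lies 8710 bases from that start, that of Slc4a5 17547 and that of Aqp1 133 bases. For Otx2 and Slc4a5 the peak calls therefore do not cover the RefSeq windows searched for motifs. No peak was called in the GENCODE window in any of the 12 libraries for 8 of the 10 genes. The same held for 45.1% of 21951 protein-coding genes, and 40.3% of those genes had a peak in all 12. Aqp1 had a peak in 5 of 12 libraries, namely 1 of 2 WT anterior, 2 of 2 stabilized anterior, 0 of 2 WT posterior and 2 of 2 stabilized posterior pituitary libraries. The longest, at chr6:55335903-55336771 on mm10, had a fold enrichment of up to 6.60 and covers the Aqp1 window printed above. At a stricter threshold (fold enrichment of at least 4 and -log10 q of at least 5) Aqp1 had a peak in 4 of 12 libraries, all of stabilized mice, the WT anterior one dropping out. The peak lists of posterior pituitary held 26918 and 26385 peaks in WT and 36780 and 52739 in stabilized mice, and those of anterior pituitary 46536 and 61554 in WT and 49798 and 52877 in stabilized mice. The part of the list length in these calls was not tested. Enpp2 also had a peak in 5 of 12 libraries, 3 of them of cerebellum, and in 11 of 12 when the window was widened. These cells are ECs, and the chromatin of the epithelium was not measured.

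The 5 genes outside the lists whose level followed that of the 10 most closely over the 16 RiboTag libraries were Mfrp (Pearson r = 0.996), Col8a1 (0.990), Slc2a12 (0.989), 2900040C04Rik (0.988) and Defb11 (0.986), out of 2404 candidates. The correlation is on log2(TPM + 1) across libraries that differ in the share of Gm23935, is set mainly by the distance between CP and cortex, and is a description. Mfrp had 73.6 and 83.6 TPM in WT CP input, and 0 in both WT cortex bound libraries.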

How the data were processed

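RNA was measured in 16 RiboTag libraries of CP and cortex. The authors deposited, for each library, Salmon 0.10.2 output per transcript: estimated counts, which are not normalized, and TPM, which is scaled within the library. They used Ensembl transcripts of GRCm38 and single-end reads of 75 cycles from an unstranded amplification kit. For ATAC-seq the authors deposited MACS2 2.1.1.20160309 peaks per library on mm10, aligned with Bowtie2 2.3.2 per the submitters' processing notes, with the fold enrichment as a ratio to local background and the -log10 q. Peaks over 2 in both were used. The rule for the members uses no values, but they and the lists were chosen with earlier results of these data known.

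Estimated counts and TPM were summed per gene with GENCODE M21, and 0.0642% to 0.241% of counts per library matched no gene. Counts were rounded, filtered with filterByExpr and tested with edgeR 4.0.16 (TMM, quasi-likelihood F test, Benjamini-Hochberg adjustment) in R 4.3.3. All 16 libraries entered the fit of bound against input and its interaction with genotype, and the 8 input or 8 bound libraries entered the fits of genotype and tissue. Calls required a fold of at least 2 with adjusted p under 0.05. DESeq2 1.42.0, RLE normalization, library size without Ttr, no filter, a length offset, fits of the compared groups alone, the replicate block and leaving out each library were the alternatives. Intervals cover counting error only, at 95.0% confidence, with a floor of 3 counts for a count of 0. Samples were grouped by their GEO titles. Replicates are separate samples of each group, and p-values measure the spread between them. One library, stabilized anterior pituitary GFP-positive replicate 2, has labels that name both lobes and was grouped by its title. Figures and descriptions used Python 3.11.15, pandas 2.3.3, numpy 2.4.6, scipy 1.17.1 and matplotlib 3.10.9. All 10 members were named. From each list of other epithelial genes the 2 with the highest TPM in WT CP input and the 1 with the highest bound to input fold in WT CP were named.

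The main fit is unpaired, and in the replicate block input and bound libraries of the same number form pairs, because the study's methods take the input from the homogenate used for the pull-down. The correlation of their deviations from the group means over 18226 genes was 0.0482 in WT cortex, 0.144 in stabilized cortex, 0.0847 in WT CP and 0.0923 in stabilized CP.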

Additional observations from a re-analysis of the deposited data

Results flagged for a closer look

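Ttr was 49.1-fold higher in stabilized than in WT cortex input, with both stabilized libraries above both WT libraries, whereas both stabilized libraries were below both WT libraries in CP input. Folr1 was 2.80-fold higher in stabilized cortex input, with the opposite direction in CP input. Without stabilized cortex input replicate 2, the log2 fold change was 2.94 for Ttr and 0.38 for Folr1 (edgeR adjusted p = 0.747). The differences between tissues were not tested for these genes. Kl in WT cortex was 1.60-fold higher in bound than in input RNA and Cldn2, from 3 and 7 counts in input, 34.3-fold higher, whereas both were lower in bound RNA of WT CP. Without WT cortex bound replicate 1, the log2 fold change of Cldn2 was 3.12 (edgeR adjusted p = 0.0330). These differences between tissues were not tested either.

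In libraries outside the tests, Ttr reached 3514 TPM in WT cerebellum GFP-negative replicate 2, far above the other cerebellum libraries. Aqp1 reached 47.4 and 71.1 TPM in GFP-positive cells of stabilized anterior pituitary and 235.2 and 281.9 TPM in those of stabilized posterior pituitary, above both WT libraries of the same lobe. These libraries entered no test of the 10 genes, and their values are given as descriptions.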

How the results depend on the processing

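Of the alternative values of single genes, 629 stayed the same. For tested fold changes this means the same direction and side of an adjusted p of 0.05 (the fold is not part of this tally). The 629 also hold values without a test. These are TPM differences that shifted by less than their spread and unchanged counts of libraries with a peak. Of the other values, 54 came to pass the p threshold, 23 no longer passed, 23 values without a test moved and 7 fold changes turned in sign. The sign turned for differences near 0: Otx2 in CP input (0.015 with library size without Ttr, -0.23 to 0.062 without 1 library), Clic6 in CP input (0.0014 with library size without Ttr), Kcnj13 in CP input (0.055 with a length offset), Aqp1 in CP bound RNA (-0.29 to 0.70 without 1 library) and its interaction in CP (-0.51 to 0.55 without 1 library). Counts of the 10 genes called lower in bound RNA were 5 in WT CP, 10 in stabilized CP, 2 in WT cortex and 5 in stabilized cortex with no filter on low counts, against 6.62%, 8.36%, 1.54% and 7.39% of all 29881 genes. That setting called 1 and 4 genes in the interactions of CP and cortex (1.45% and 2.37% of all genes), and 4 and 5 between genotypes in CP and cortex bound RNA (3.32% and 8.11%). DESeq2 called 2 in WT cortex (4.75% of all genes), 4 in stabilized cortex (13.5%), 1 in each interaction (1.74% in CP, 3.25% in cortex), and 2 between genotypes in each bound fraction (4.42% and 11.9%). With the replicate block, which pairs bound and input, the counts were 3 in WT CP (7.53%), 9 in stabilized CP (9.55%), 2 in WT cortex (6.03%) and 1 in the interaction of cortex (0.752%). With a length offset they were 2 in stabilized CP (9.01%), 0 in WT cortex (0.883%), 1 in stabilized cortex (6.02%) and 0 between genotypes in cortex bound RNA (3.39%). In fits of the compared groups alone they were 3 in WT CP (8.95%), 10 in stabilized CP (9.17%), 0 in WT cortex (0.605%), 1 in stabilized cortex (12.6%), and 3 and 0 between genotypes in CP and cortex bound RNA (1.76% and 8.49%). With library size without Ttr, 0 were called in WT cortex (1.75%). Leaving out 1 library gave 0 to 2 in WT cortex (0.509% to 3.81% of all genes), 2 to 5 in stabilized cortex (4.61% to 7.82%), 0 to 1 in the interaction of cortex (0.132% to 1.85%) and 1 to 3 between genotypes in cortex bound RNA (1.74% to 6.69%). Rescaled TPM put 8 genes lower in WT CP bound RNA, beside 3 on TPM, the sign of 5 genes (Kl, Clic6, Kcnj13, Cldn2 and Enpp2) turning. Except where named, the cause was not tested. Between WT and stabilized samples the numbers mark no shared animal (correlations of deviations -0.177 in CP input and 0.00231 in cortex input), and a replicate block there took the adjusted p of Folr1 in cortex input to 0.0708. Without both replicate 2 libraries of stabilized cortex, an alternative chosen after seeing the data, 3 genes were called lower in stabilized cortex bound RNA, against 5.78% of all genes. With 2 replicates per group and few counts for most of these genes in cortex, small differences there could be missed. The size of difference that would be detected was not measured.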
